A study of Mus musculus with 72 samples.

Results

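A set of 9 cardiomyocyte genes that are strongest in the atria of the heart, or shared by atria and ventricles, were followed in lung and heart libraries of *Bmal1*-KO mice: *Myh6*, *Myl7*, *Myl4*, *Nppa*, *Sln*, *Tnni3*, *Tnnt2*, *Chrm2*, and *Asb11*. The 9 genes were taken from the 55401 genes of the deposited tables and were selected on their lung levels in these same libraries, which were known to be higher in KO+AAV than in KO, so the lung difference is described here without a test. All 9 symbols matched an Ensembl ID. Lung and heart were each sequenced in 4 KO and 4 KO+AAV libraries from male mice at 40 weeks of age. Both groups were global *Bmal1* knockouts, and no WT lung or heart was measured. KO+AAV mice had been injected below the sternum on postnatal day 5 with an AAV9 vector that carried HA-tagged *Bmal1* under CK6, a promoter with activity in skeletal muscle fibers, and the labels give no vector for the KO mice. Liver and white fat of the same 2 groups at 40 weeks (4 libraries each) served to compare levels, as did gastrocnemius from males at 2 ages. At 10 weeks it had 6 WT, 6 KO, and 7 KO+AAV libraries, and at 40 weeks 5 of each group. A vector control at 10 weeks set gastrocnemius of 3 KO+GFP mice, given GFP in AAV9 under CK6 on postnatal day 5, against 3 KO mice.

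Cardiomyocytes contract by sliding myosin along actin filaments, and atrial cells use their own myosin light chains, *Myl7* and *Myl4*, where ventricular cells use *Myl2* and *Myl3*. Atrial cells also store atrial natriuretic peptide, made from *Nppa*, and slow their beat through the muscarinic receptor encoded by *Chrm2*. In rodents a sleeve of cardiac muscle continues from the left atrium along the pulmonary veins into the lung, so lung tissue can hold cardiomyocytes, and a dissected lung can also carry attached atrium.

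Reads counted on genes were 36903079 to 49821579 in the 16 lung and heart libraries. Alveolar marker genes (11 genes such as surfactant proteins) summed to 17192 to 30334 CPM (reads scaled to an equal total per library) in the 8 lung libraries and to 133 to 226 CPM in the 8 heart libraries, and airway markers (11 genes) to 37429 to 59177 CPM in lung and at most 2.57 CPM in heart. Within the alveolar sum of the hearts, *Hopx* had 89.4 to 183 CPM and the surfactant gene *Sftpc* at most 0.119 CPM, both named after their values were seen. KO heart replicate 2 stood apart from the other hearts. Its hepatocyte markers (7 genes) summed to 31823 CPM against 8.26 to 18.1 CPM in the other 7 hearts, its albumin gene *Alb* (named after its values were seen) had 859141 normalized counts, and the heart tests are therefore given with and without it. KO white fat replicate 2 likewise carried the epididymal gene *Gpx5*, named after its values were seen, at 748500 normalized counts, where the other 7 fat libraries had 0 to 1.59. The labels number the replicates without naming the animals, so the spread between libraries may be in part technical. *Arntl*, the gene that encodes BMAL1, had 1413 to 1503 normalized counts in KO lung and 1427 to 1819 in KO+AAV lung, with overlap of the groups.

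Promoter windows of 250 bases before to 50 bases after the start (RefSeq, GRCm38.p6) were found for 8 of the 9 genes, and *Sln* had none in the table. Those of *Myh6*, *Myl7*, and *Nppa* are shown because these genes stand for the shared, the atrial, and the secreted products of the set, and because the 3 genes were higher together in lung. Capitals mark the TATA motif (letters TATAAA), the GATA motif (letters GATAA), and the CArG box, each searched on both strands, and the motifs do not overlap in these windows.
Myh6, chr14:54966558-54966857, minus strand: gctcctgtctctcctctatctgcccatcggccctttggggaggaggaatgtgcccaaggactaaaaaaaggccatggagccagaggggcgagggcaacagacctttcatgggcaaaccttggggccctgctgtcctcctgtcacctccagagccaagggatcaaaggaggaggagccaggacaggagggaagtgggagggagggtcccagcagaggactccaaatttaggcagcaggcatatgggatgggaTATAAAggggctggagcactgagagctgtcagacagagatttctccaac
Myl7, chr11:5898733-5899032, minus strand: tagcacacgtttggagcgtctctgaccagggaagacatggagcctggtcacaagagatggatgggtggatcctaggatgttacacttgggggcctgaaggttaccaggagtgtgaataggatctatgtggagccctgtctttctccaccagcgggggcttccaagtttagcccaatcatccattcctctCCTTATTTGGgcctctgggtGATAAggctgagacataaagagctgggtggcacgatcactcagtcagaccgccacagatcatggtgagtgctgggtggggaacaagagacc
Nppa, chr4:148000472-148000771, plus strand: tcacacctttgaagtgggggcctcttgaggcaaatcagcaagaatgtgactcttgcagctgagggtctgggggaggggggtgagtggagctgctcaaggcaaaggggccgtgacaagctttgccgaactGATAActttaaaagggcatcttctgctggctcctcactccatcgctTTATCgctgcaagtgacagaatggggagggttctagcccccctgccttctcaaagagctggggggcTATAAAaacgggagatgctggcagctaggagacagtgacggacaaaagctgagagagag
*Myl7* held 1 CArG box and 1 GATA motif, *Nppa* 2 GATA motifs and 1 TATA motif, and *Myh6* 1 TATA motif. Of 32851 mouse promoter windows of the same length, 1.63% held a CArG box, 25.4% the GATA motif, and 13.6% the TATA motif. The E-box CACGTG, the sequence that BMAL1 binds with its partner, was in 7.15% of all windows and in none of the windows of the 8 genes. A match is a string of letters, not a bound site.

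All 9 genes were higher in KO+AAV than in KO lung, and for each of them the 4 KO+AAV libraries lay above the 4 KO libraries. Among the 21072 lung genes with a mean normalized count above 5, 3.91% had all KO+AAV libraries above all KO libraries and 2.86% had them all below, and since the genes were chosen for this contrast nothing is read from that count. The ratio of group means ran from 2.90 for *Chrm2* to 34.7 for *Nppa*, and the median difference of the 9 genes was 3.02 on the log2(normalized count + 1) scale against a median of 0.00 over all lung genes. In bulk tissue, more cardiomyocytes and more RNA per cardiomyocyte cannot be told apart.

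*Myh6* (ENSMUSG00000040752, chr14:54941921-54966927), the main cardiac myosin heavy chain of the adult mouse, had 1918, 11712, 13651, and 19027 normalized counts in KO lung replicates 1 to 4 and 67485, 30771, 90552, and 100517 in KO+AAV lung replicates 1 to 4. KO replicate 1 was lowest, KO+AAV replicate 2 was the lowest of its group, and the highest KO library was below it by a factor of 1.62. Of the 75-base windows of *Myh6* transcripts, 13.7% also occur in *Myh7*, the slow myosin heavy chain. The sequenced reads were longer than these windows, and how reads matching both genes were counted is not given in the sources used here. *Myh7* went the other way, with 557 to 838 normalized counts in KO lung and 491 to 521 in KO+AAV lung, all below KO.

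*Myl7* (ENSMUSG00000020469, chr11:5896637-5898782), the atrial regulatory light chain, had 125, 2099.9, 2655, and 3349.7 normalized counts in KO lung and 12186, 5054, 17468, and 19622 in KO+AAV lung, in replicate order. *Myl4* (ENSMUSG00000061086, chr11:104550663-104595753), the atrial essential light chain, had 400.2, 3902, 3922, and 7683 in KO lung and 21372, 9104.5, 29255, and 36224 in KO+AAV lung. The means were 2058 ± 1386 (SD, n = 4) and 13583 ± 6487 (SD, n = 4) for *Myl7*, a log2 difference of 3.28. For *Myl4* the gap between groups was narrow, with the lowest KO+AAV library 1.19 times the highest KO library.

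The thin-filament genes followed the same libraries. *Tnni3* (ENSMUSG00000035458, chr7:4518305-4524229, overlapped by *Dnaaf3* on its strand), which encodes the cardiac troponin that holds the filament off in diastole, had 683, 3018, 2793, and 3712 normalized counts in KO lung and 13022, 6299, 16406, and 20215 in KO+AAV lung. *Tnnt2* (ENSMUSG00000026414, chr1:135836354-135852260), the cardiac troponin that ties the complex to tropomyosin, had 641, 6427, 6702, and 8934.5 in KO lung and 33308, 18057, 42210.3, and 54873 in KO+AAV lung. The log2 differences were 2.58 and 3.12. *Myh6*, *Myl7*, *Myl4*, *Sln*, and *Tnnt2* put the 8 lungs in the same order, from KO replicate 1 to KO+AAV replicate 4.

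*Nppa* (ENSMUSG00000041616, chr4:148000722-148002079), the precursor of atrial natriuretic peptide, had the widest range. It had 0, 3.64, 56.5, and 350.4 normalized counts in KO lung and 5113, 851, 5255, and 3032 in KO+AAV lung. KO replicate 1 had no read, which allows up to 3.15 normalized counts at 3 reads (counting error only), and the 2 highest libraries were KO+AAV replicates 1 and 3 and not replicate 4, which led for the light chains. On the opposite strand *Gm13054* shares 61.5% of the exon bases of *Nppa*. It had 18.2 to 35.6 normalized counts in lung, and whether counting used the strand is not given in the sources used here.

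*Sln* (ENSMUSG00000042045, chr9:53850164-53854560) encodes sarcolipin, a small membrane protein that restrains the calcium pump of the sarcoplasmic reticulum. It had 30.5, 569, 872, and 1279 normalized counts in KO lung and 5008, 2536, 5755, and 7319 in KO+AAV lung. The fold between means was 7.50. Of the 6 calcium pump genes matched, 4 had all KO+AAV lungs above all KO lungs, with *Sln* among them by its selection on lung. Of all lung genes, 3.91% were so separated. *Pln*, which encodes the related inhibitor phospholamban, had 217 to 2094 in KO lung and 3553 to 8097 in KO+AAV lung, and the pump *Atp2a2* had 12168 to 27039.6 and 33377 to 91002. *Mrln*, which encodes the inhibitor myoregulin, had 40.8 to 58.4 and 71.5 to 117. The fast-fiber pump *Atp2a1* (32.8 to 105 and 94.96 to 645) and the pump *Atp2a3* of non-muscle cells (14812 to 15770.3 and 12668 to 17386.5) overlapped.

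*Chrm2* (ENSMUSG00000045613, chr6:36388084-36528414) differed from the contractile genes in its floor. It had 548, 846, 675, and 772 normalized counts in KO lung and 2026, 1725, 2142, and 2349 in KO+AAV lung, so that KO replicate 1, the lung with the least *Myh6*, still held 548. Airway smooth muscle also makes this receptor. KO lungs held 7.86% to 12.8% of the median *Chrm2* CPM of the 7 hearts other than KO replicate 2, where they held 0.152% to 1.61% of the heart's *Myh6* CPM. KO+AAV lungs held 25.8% to 34.5% and 2.55% to 8.18%, respectively.

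In the muscarinic list, 3 of 14 genes tested had all KO+AAV lungs above all KO lungs: *Chrm2* and the channel subunits *Kcnj3* and *Kcnj5*, through which the receptor slows atrial beating. *Chrm2* is in this count by its selection on lung, and 3.91% of all lung genes were so separated. *Kcnj3* had 8.402 to 265 normalized counts in KO lung and 503 to 1727 in KO+AAV lung, and *Kcnj5* 15.8 to 167 and 247 to 915. The other muscarinic receptors overlapped, with *Chrm3* at 116 to 187 and 132 to 224 and *Chrm1* at 4.201 to 16.5 and 10.4 to 59.7. The G protein subunits *Gnai2* and *Gnao1* and the brake *Rgs6* were 19396 to 23032, 1771 to 2865, and 537 to 687 over all 8 lungs. The list's median difference was 0.12 on the log2 scale.

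*Asb11* (ENSMUSG00000031382, chrX:164436994-164459170), a substrate adaptor of a ubiquitin ligase, was the least abundant member. It had 28.4, 44.6, 43.1, and 58.1 normalized counts in KO lung and 221, 149, 265, and 277 in KO+AAV lung. Its lowest KO+AAV library was 2.56 times its highest KO library, the widest gap of the 9 genes, and the spread within each group was at most 2.05-fold.

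In the natriuretic list, 2 of 10 genes tested had all KO+AAV lungs above all KO lungs, *Nppa* and *Corin*, the protease that cuts the precursor. *Nppa* is in this count by its selection on lung, and 3.91% of all lung genes were so separated. *Corin* had 16.8, 92.9, 147, and 113 normalized counts in KO lung and 868, 495, 1164, and 843 in KO+AAV lung. *Nppb*, another natriuretic peptide gene, listed here as common to atrium and ventricle, had 2.10 to 9.54 and 5.77 to 36.2. The receptors *Npr1* (8609 to 11273), *Npr2* (4139 to 5645), and *Npr3* (2184 to 5407) overlapped between groups, and the median difference of the list was 0.00.

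**Figure D1:**
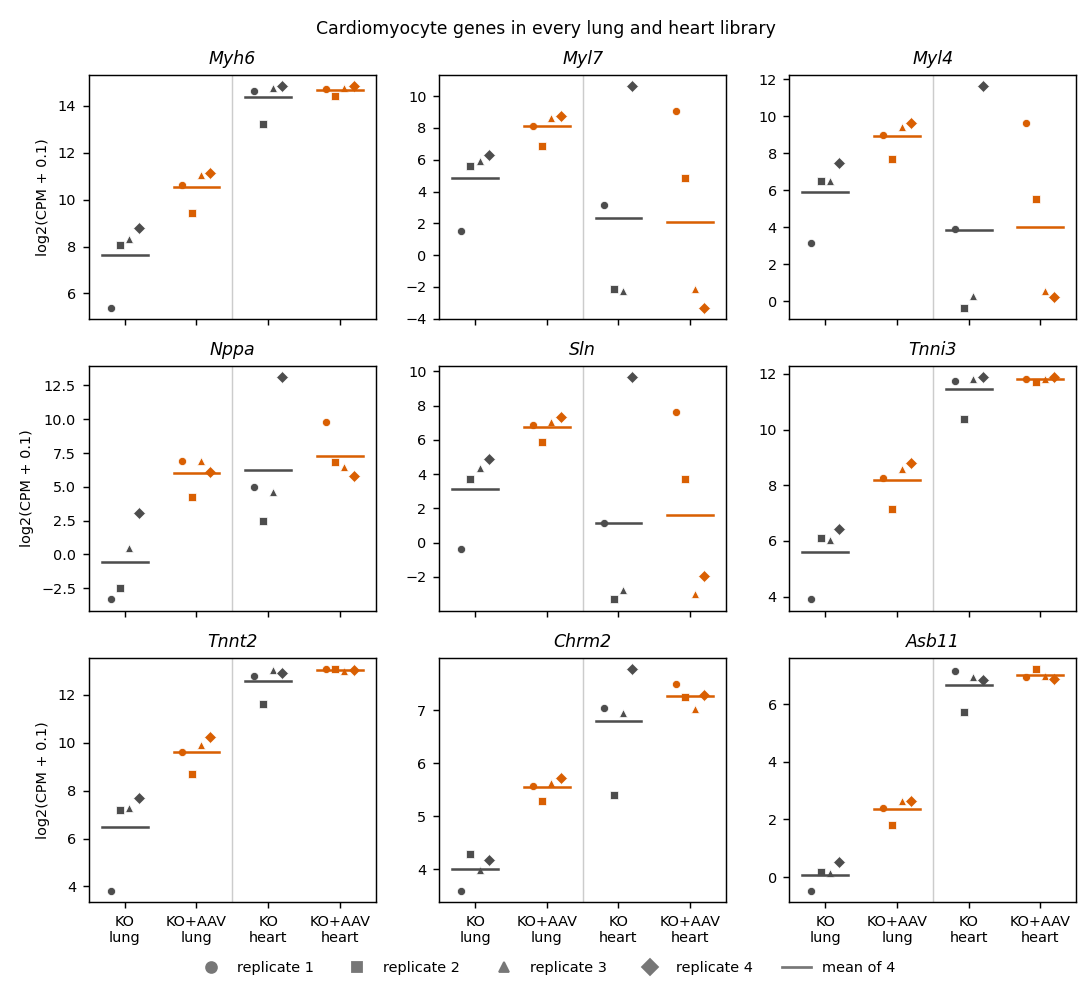
The 9 genes in every lung and heart library as log2(CPM + 0.1), with a marker shape for each replicate number, dark grey for KO, orange for KO+AAV, and a line at the mean of 4 libraries. The 4 KO+AAV lungs lie above the 4 KO lungs for each gene, while in heart *Myl7*, *Myl4*, *Nppa*, and *Sln* are far higher in KO replicate 4 and KO+AAV replicate 1 than in most other hearts.

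Relative to *Myh6* in the same library, the contractile genes kept close proportions in lung. As reads per base of exon with *Myh6* set to 100, *Myl7* stood at 204, 222, and 201 in KO lung replicates 2 to 4 and at 206, 187, 220, and 222 in KO+AAV lung, while *Myh6* itself varied from 269 to 2241 CPM over these 7 libraries. KO lung replicate 1, with 41.7 CPM of *Myh6*, was the exception at 74.3. *Myl4* was 41.7 to 58.6 and *Tnnt2* 40.4 to 50.9 per 100 *Myh6* in the same 7 lungs. *Nppa* did not keep such a proportion, with 0.242 to 14.3 in KO replicates 2 to 4 and 21.5 to 58.9 in KO+AAV lung. In heart the proportion of *Myl7* was lower throughout, at 62.7 in KO replicate 4, 22.3 in KO+AAV replicate 1, 1.5 in KO+AAV replicate 2, and at most 0.391 in the other 5 libraries. *Tnni3* was 59.1 to 84.0 per 100 *Myh6* in the 7 lungs and 41.3 to 49.9 in the 8 hearts.

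**Figure D2:**
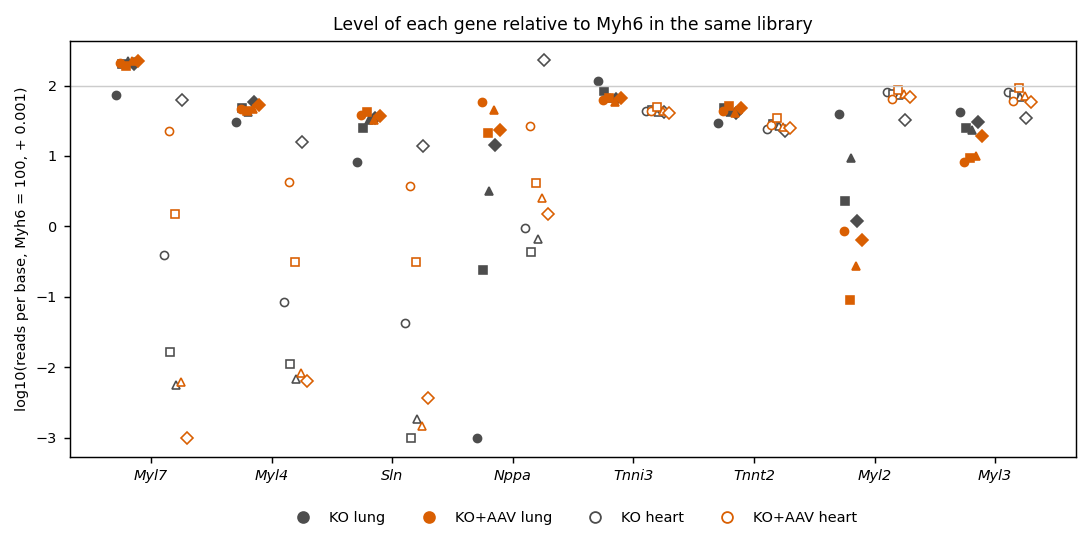
Reads per base of exon of 8 genes relative to *Myh6* = 100 in the same library, as log10 of the value plus 0.001, so that the lowest position, -3, is a value of 0. Filled symbols are lung, open symbols heart, and the marker shape gives the replicate number. *Myl7*, *Myl4*, and *Sln* sit together in lung except for KO replicate 1 and spread over several orders of magnitude in heart, while *Myl2* and *Myl3* are lower in the other 7 lungs than in any heart. In KO lung replicate 1 they stand at 38.9 and 41.8, above KO heart replicate 4 at 32.3 and 34.2.

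The ventricular light chains gave a measure that held none of the 9 genes but was not independent of their lung pattern. Its genes *Ryr2*, *Mybpc3*, and *Actn2* were among the 10 genes most like the 9 in lung. The p-values therefore state only that the lung and heart libraries did not overlap, and not how far apart they lay. The log2 ratio of summed reads per base of *Myl2* and *Myl3* to those of the common cardiomyocyte genes *Actc1*, *Actn2*, *Ryr2*, *Tnnc1*, *Mybpc3*, and *Casq2* was -1.95, -3.52, -2.84, and -3.31 in KO lung and -4.76, -4.10, -4.48, and -3.71 in KO+AAV lung. In heart it was -0.81, -0.72, -0.75, and -1.38 in KO and -0.82, -0.19, -0.80, and -0.87 in KO+AAV. Every lung lay below every heart, and every KO+AAV lung lay below every KO lung. The mean was -3.59 ± 0.91 (SD, n = 8) in lung and -0.79 ± 0.32 (SD, n = 8) in heart, a difference of 2.79 on the log2 scale or 6.92-fold (exact two-sided permutation test, p = 0.000155, the smallest that 8 against 8 libraries can give). With *Myl2* alone in place of both light chains the difference was 5.74, or 53.4-fold, with the same exact p. Within KO the difference was 1.99 and within KO+AAV 3.59, each with an exact permutation p of 0.0286, the smallest that 4 against 4 can give. Without KO heart replicate 2 the difference was 2.78 over both groups and 1.92 within KO (exact permutation p = 0.0571, the smallest that 4 against 3 can give).

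**Figure D3:**
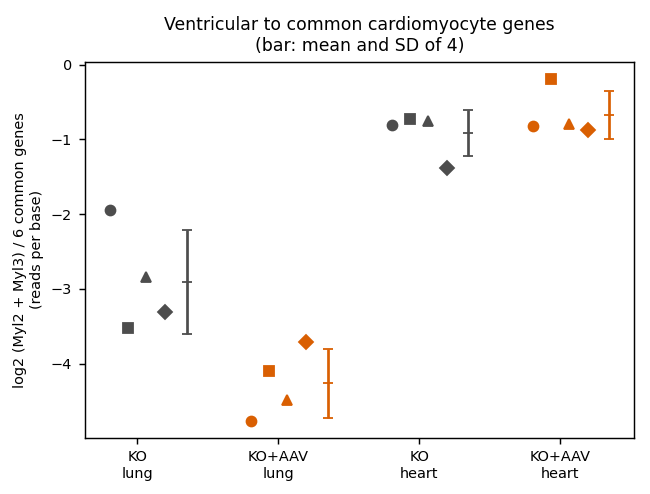
The log2 ratio of *Myl2* plus *Myl3* to the 6 common cardiomyocyte genes, in reads per base, for each library, with the mean and SD of 4 beside each group. All 8 lungs lie between -4.76 and -1.95 and all 8 hearts between -1.38 and -0.19.

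*Myl2*, the ventricular regulatory light chain, did not follow the groups in lung: it had 216, 78.3, 376, and 65.9 normalized counts in KO and 166, 8.08, 70.5, and 190 in KO+AAV. *Myl3*, which slow skeletal fibers also make, had 244 to 1730 and 888 to 5945. None of the 6 ventricular genes tested had all KO+AAV lungs above all KO lungs, and their median difference was -0.06. Some of these genes were near or above their heart level in lung. Median CPM in lung and heart was 33.0 and 8.57 for *Irx5* and 4.63 and 4.72 for *Hey2*. The list median is therefore not a measure of ventricular RNA alone. Skeletal muscle markers (15 genes) summed to 7.93 to 18.8 CPM in KO lung and 15.9 to 73.3 CPM in KO+AAV lung.

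Cardiomyocyte genes outside the 9 were higher in the same libraries. Of 31 genes common to atrium and ventricle, all 31 were above the filter and 25 had all KO+AAV lungs above all KO lungs, with a median difference of 2.81 on the log2 scale. *Actc1*, cardiac actin, had 995, 5856, 5008, and 9084 normalized counts in KO lung and 25448, 6307, 29997, and 38789 in KO+AAV lung, an overlap by KO+AAV replicate 2. *Ryr2*, the calcium release channel, had 515 to 2749.5 and 4370.0 to 11434, and *Casq2*, which stores calcium beside it, 74.6 to 1222 and 1477 to 6586. *Actn2*, *Mybpc3*, and *Tnnc1*, which anchor and tune the sarcomere, had 129 to 1269, 224 to 1984, and 148 to 1854 in KO lung and 1835 to 6870.0, 2939.5 to 10738, and 1832 to 8632 in KO+AAV lung, *Tnnc1* with overlap.

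Of 15 further atrial genes, 9 had all KO+AAV lungs above all KO lungs, with a median difference of 0.78. Among these, and named after its values were seen, *Shox2*, a transcription factor of the sinus node and pulmonary vein muscle, had 0, 8.20, 15.3, and 8.67 normalized counts in KO lung and 55.8, 21.9, 99.6, and 73.3 in KO+AAV lung. The sinus node channel gene *Hcn4* of the same list stayed low, with a median of 0.552 CPM and at most 0.616 CPM over the 8 lungs. *Nr2f2* and *Gja5* of this list, named after their values were seen, were not low in lung. Their lung medians of 88.0 and 54.3 CPM lay above their highest heart libraries, at 29.3 and 50.7 CPM. The list median is therefore not a measure of atrial RNA alone. *Bmp10*, a growth factor that adult right atrium makes, also named after its values were seen, was at 0 in 6 of the 8 lungs, at 36.4 in KO replicate 4, and at 3.92 in KO+AAV replicate 1. In heart *Bmp10* had 107334 normalized counts in KO replicate 4 and 1460 in KO+AAV replicate 1. It had 64.8 in KO replicate 2, the heart with hepatocyte markers, and at most 6.72 in the others.

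The 10 genes outside the 9 with the pattern most like theirs over the 8 lungs included *Lmod2*, *Rnf207*, *Ryr2*, *Mylk3*, *Adprhl1*, *Trim63*, *Ckmt2*, *Mybpc3*, and *Actn2*, several of which build or regulate the sarcomere. The Pearson correlation of these named genes with the mean scaled level of the 9 genes was 0.9965 to 0.9995 across 8 libraries, as a description. These 8 points fall into the 2 groups, and 525 of 21063 genes (2.49%) had a correlation above 0.9. *Lmod2*, first of the 10, had 43.1 to 419 normalized counts in KO lung and 887 to 2374 in KO+AAV lung.

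Markers of other lung structures moved with the groups as well, and their part in the lung difference was not tested. Of 11 airway genes, 8 had all KO+AAV lungs above all KO lungs, with a median difference of 2.6, although their summed level overlapped (37429 to 56987 CPM in KO and 42127 to 59177 CPM in KO+AAV). *Krt5*, a basal cell keratin of large airways named after its values were seen, was at 0 in the 4 KO lungs and at 77.3, 21.9, 49.8, and 74.4 normalized counts in KO+AAV. Of 10 smooth muscle genes, 4 were so separated, and their sum was 827 to 1204 CPM in KO and 1238 to 1388 CPM in KO+AAV. Cartilage markers (10 genes) summed to 26.5 to 52.4 and 61.3 to 81.4 CPM, with 2 and 1 of them at 0 in all 4 libraries. Alveolar genes went the other way: 3 of 11 had all KO+AAV lungs below all KO lungs, and the sums were 22115 to 30334 and 17192 to 21177 CPM. Adipocyte genes (7) summed to 660 CPM in KO replicate 3 and 17.2 to 31.6 CPM in the other KO lungs, and to 38.3 to 707 CPM in KO+AAV. Thymus (7 genes) and oesophagus (6 genes) markers summed to at most 8.79 and 1.51 CPM in any lung. Mesothelial, hepatocyte, endothelial, and clock genes had median differences of 0.18, -0.01, -0.21, and -0.04, and none of these genes had all KO+AAV lungs above all KO lungs.

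In heart, whose group difference was not the one the genes were selected on, none of the 9 genes passed the test of KO+AAV against KO. The fit by limma gave 0 genes with an adjusted P under 0.05 among 18089 tested (0.0%) and 1.28% with P under 0.05, and none of the 9 genes had P under 0.05. By edgeR and by DESeq2 none of the 9 was called either. Of the 9 genes, those shared by atria and ventricles were fairly even across hearts other than KO replicate 2. Some common cardiomyocyte genes outside the 9 varied more in the same hearts. *Actc1* had 184585 to 454548 normalized counts and *Mybpc3* 122755 to 275133. *Myh6* had 1159916, 476578, 1204704, and 1029991 normalized counts in KO and 1037562, 915092, 1199914, and 1312755 in KO+AAV, with overlap and the lowest value in KO replicate 2. The log2 differences of *Myh6*, *Tnni3*, *Tnnt2*, and *Asb11* were 0.28 ± 0.39, 0.32 ± 0.29, 0.44 ± 0.30, and 0.31 ± 0.26 (SE, 4 against 4; limma, adjusted P 0.862 to 0.870), and without KO replicate 2 they were -0.03, 0.03, 0.18, and 0.06. *Chrm2* had 2087 to 7713 and 5707 to 6985, a difference of 0.44 ± 0.36 (SE), and of 0.05 without KO replicate 2.

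The atrial genes separated single hearts rather than groups. *Myl7* had 398, 6.48, 4.80, and 56693 normalized counts in KO heart and 20320.0, 1204, 5.48, and 0 in KO+AAV heart. *Myl4* had 675, 33.7, 48.0, and 112201 in KO and 30982, 1964, 60.3, and 47.9 in KO+AAV, and *Sln* 94.6, 0, 1.92, and 28390.2 in KO and 7694, 556, 1.10, and 6.99 in KO+AAV. For these 3 genes KO replicate 4 was highest, KO+AAV replicate 1 next, and KO+AAV replicate 2 and KO replicate 1 followed at a distance, while the other 4 hearts were lower still. The counts of 0 for *Myl7* in KO+AAV replicate 4 and *Sln* in KO replicate 2 allow up to 2.99 and 3.89 normalized counts. *Nppa* had 1404, 263, 1041, and 309047 in KO and 35104, 4829, 3919, and 2502 in KO+AAV. The fitted differences were -0.66 ± 3.88, 0.13 ± 2.98, 0.79 ± 3.68, and 0.95 ± 2.05 for *Myl7*, *Myl4*, *Sln*, and *Nppa* (limma, SE, adjusted P 0.909 to 0.993), with exact permutation p of 0.857, 0.943, 0.829, and 0.714. Without KO replicate 2 all 4 were negative, at -2.18, -1.25, -1.12, and -0.27 in the same order (exact permutation p 0.743, 0.743, 0.857, and 0.914). At these errors a difference of several-fold in either direction was not detectable.

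Liver and white fat, which hold no cardiac muscle of their own, gave the level of the 9 genes outside lung and heart. The livers were not free of other cardiomyocyte genes. *Myl2* had 16.4 to 767 and *Actc1* 22.5 to 1276 normalized counts there, lowest and highest in the same livers as *Myh6*. Where these reads came from was not tested. *Myh6* had 2.01 to 112 CPM in the 8 livers and 1.13 to 19.2 CPM in the 8 fat libraries, against 41.7 to 2241 CPM in lung, so that KO lung replicate 1 lay inside the liver range and the other 7 lungs, from 269 CPM, lay above it. *Myl7* was at most 2.39 CPM in liver and 0.478 CPM in fat, and KO lung replicate 1 had 2.72 CPM. The order of median *Myl7* levels was lung (96.1 CPM), heart (4.46), fat (0.273), liver (0.125), and gastrocnemius (0), and the heart range of 0 to 1623 CPM spanned all the others. For *Myh6* the order was heart (27123 CPM at the median), lung (569), liver (44.7), fat (9.53), and gastrocnemius (1.44), with fat and liver ranges that overlap.

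*Nppa* in liver and fat was high in the libraries that carry the genotype and number of the hearts rich in it. In liver it had 15.6 CPM in KO replicate 4, 3.29 CPM in KO+AAV replicate 1, and at most 0.138 CPM in the other 6. White fat had 1.86 CPM in KO replicate 4, 0.467 CPM in KO+AAV replicate 1, and 0 in the other 6. The hearts with these numbers had 8848 and 908 CPM, and the other 6 hearts 5.32 to 115 CPM. Lung *Nppa* was highest in KO+AAV replicates 3 and 1, at 121 and 119 CPM. Among KO lungs it was highest in replicate 4, at 8.11 CPM, with at most 1.31 CPM in the others. The labels do not say whether a number marks the same mouse in each tissue, and the source of these reads was not tested.

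**Figure D4:**
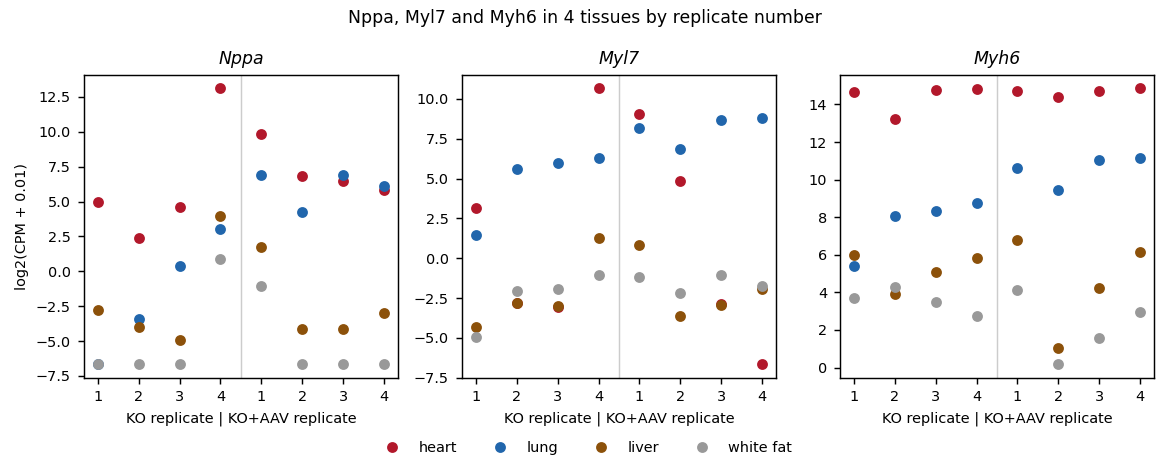
*Nppa*, *Myl7*, and *Myh6* as log2(CPM + 0.01) in heart, lung, liver, and white fat, by genotype and replicate number, with 1 point per library. Heart *Nppa* peaks at 8848 CPM in KO replicate 4, and liver and white fat *Nppa* peak in the library of the same genotype and number.

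None of the 9 genes in liver and none of the 8 above the filter in white fat passed the test of KO+AAV against KO (limma, adjusted P 0.998 for each in liver and 0.907 to 0.959 in fat). No gene of the whole table was called in either tissue by limma (0.0%), 3.32% and 1.04% had P under 0.05, and none of the 9 genes did. Count tests called none of them. *Asb11* had 2125 normalized counts in KO white fat replicate 2, the library with *Gpx5*, and 2.16 to 87.4 in the other 7.

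Gastrocnemius, the muscle in which the CK6 promoter is active, held *Asb11* throughout and much *Sln* at 40 weeks in KO and KO+AAV. *Asb11* had 1042 to 5194 normalized counts in the 34 libraries of the main experiment, and *Myl7* and *Chrm2* had at most 0.0992 and 0.258 CPM in these libraries. Of the 9 genes, 5 were above the filter, *Myh6*, *Myl4*, *Sln*, *Tnnt2*, and *Asb11*, and none of them passed the test of KO+AAV against KO at either age (limma, adjusted P 0.234 to 0.992 at 10 weeks and 0.420 to 0.886 at 40 weeks), where 0.204% and 0.259% of 16199 genes were called. None of the 5 passed the test of a difference between ages in KO+AAV versus KO (limma, adjusted P 0.929 to 0.972, 0.00617% of genes called). By P under 0.05, *Myl4* at 10 weeks (0.89 ± 0.27 SE) and *Myh6* at 40 weeks (-2.46 ± 1.06 SE) would pass, as did 9.23% and 10.1% of all genes, and DESeq2 called *Myl4*. In the vector control, KO+GFP against KO, none of the 5 was called by limma, edgeR, or DESeq2 (3.09% of 14477 genes called by limma), and *Myh6* and *Myl4* had P under 0.05, as did 18.7% of genes.

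*Sln* was lower in WT than in KO gastrocnemius at both ages. At 10 weeks it had 6.06 to 19.7 normalized counts in 6 WT libraries (median 10.98), 22.9 to 96.8 in 6 KO (median 67.7), and 11.2 to 221 in 7 KO+AAV (median 22.4). The KO+AAV libraries differed by sequencing site, with 22.3 to 221 (median 116) in 4 from ICBR and 11.2 to 22.4 (median 13.9) in 3 from Novogene. WT and KO did not overlap, with all WT libraries lower, as for 2.61% of genes, and the difference was -2.26 ± 0.65 on the log2 scale (SE; limma, adjusted P = 0.0247, with 8.0% of genes called). With no filter on low counts the difference was the same and the call was lost (limma, adjusted P = 0.129). Within the 3 WT and 3 KO libraries sequenced at ICBR it was -2.17 (adjusted P = 0.191) and within those at Novogene -2.35 (adjusted P = 0.0361). At 40 weeks *Sln* had 17.8, 25.1, 7.08, 18.8, and 25.0 normalized counts in WT, 1871, 2695, 2348, 2102, and 133.8 in KO, and 669, 2121, 4717, 1694, and 1487 in KO+AAV. KO replicate 5 was far below the other KO libraries and still above every WT library, and 6.67% of genes had all WT libraries below all KO libraries. WT was lower than KO by -6.12 ± 0.71 on the log2 scale (SE; limma, adjusted P = 1.38e-07, with 23.5% of genes called). In limma, the 40-week difference minus the 10-week difference was -3.86 ± 0.96 on the log2 scale (SE), a comparison added after the values were seen, and did not pass the correction (limma, adjusted P = 0.0675, with 0.37% of genes called), while DESeq2 gave an adjusted P of 0.00713.

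**Figure D5:**
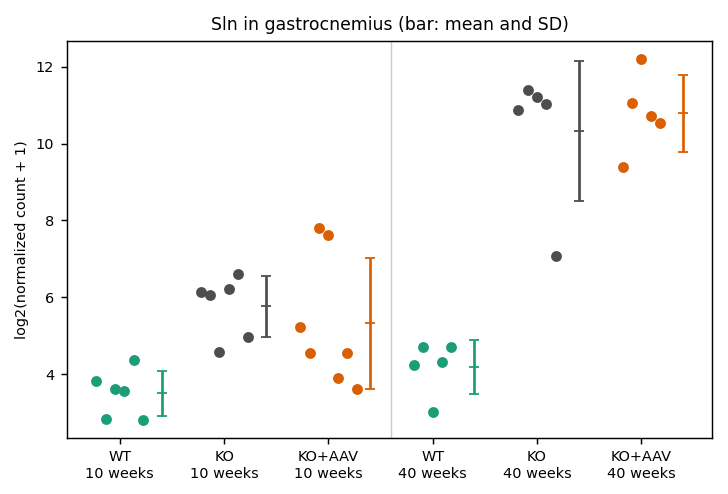
*Sln* in each gastrocnemius library as log2(normalized count + 1), with the mean and SD beside each group of 5 to 7 libraries. WT libraries lie below all KO libraries at both ages, and at 40 weeks 4 of 5 KO libraries lie at 1871 normalized counts or higher.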

How the data were processed

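RNA-Seq was measured in 72 mouse libraries. Members and gene lists were chosen with earlier results of these data known. The authors sequenced poly(A)-selected libraries, aligned reads to GRCm38 with HISAT2, counted them with HTSeq for each gene, and scaled each library by its own DESeq2 size factor. The deposited signal values are these scaled counts, in tables normalized separately by group of tissues. Strand use in counting is not given in the sources used here. Whole reads were recovered from the deposited signal (100% of values within 0.01 of a whole read) and scaled as CPM, or per exon base, to compare tissues. Gene symbols and lengths came from GENCODE on GRCm38, with a symbol for 99.5% of genes. Reads on genes were 36903079 to 50755829 per library in lung, heart, liver, and white fat and 6754312 to 41733282 in gastrocnemius, and low counts have the largest relative counting error. No library pair within a group agreed within sampling noise.

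Tests used limma 3.58.1 in R 4.3.3 with an intensity trend on log2(normalized count + 1) for genes with a mean above 5, Benjamini-Hochberg adjusted over all genes, called at an adjusted P under 0.05. Each tissue and the GFP experiment had a model of its own, and the 34 gastrocnemius libraries had 1 model of 6 groups with sequencing site as a covariate. Single values had exact two-sided permutation tests of libraries. Fold changes are on the log2(value + 1) scale and understate changes of low genes. Alternatives were edgeR 4.0.16 and DESeq2 1.42.0 on recovered reads, a mean above 50 or no filter on low counts, CPM scaling, a pseudocount of 0.5, a replicate block, no site term, 1 site alone, and each library left out.

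The genes named were the 9 genes, the genes of the ratio, those of the natriuretic, muscarinic, and calcium pump lists (2 of 8 pump symbols were not matched), the 10 genes most like the 9 in lung, and *Arntl*. Not all are printed, and some results are not reported here. The code was tested on simulated data. Python 3.11.15 with matplotlib 3.10.9 made the figures.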

Additional observations from a re-analysis of the deposited data

Results flagged for a closer look

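Of 100 groups of member values with a mean above 5, 21 held a library whose gap to the next library was too large a share of the group's range for its size by Dixon's test. The test was run on normalized counts without a log scale. Its rate of about 1 in 20 holds for normally spread, independent values. These counts are skewed and the genes share libraries, so the 21 cannot be set against that rate. Most were the same few libraries. In KO heart replicate 4, *Myl7* (56693 normalized counts), *Myl4* (112201), *Nppa* (309047), and *Sln* (28390.2) were so set apart, and in KO+AAV heart replicate 1 the same genes were at 20320.0, 30982, 35104, and 7694. In liver, KO replicate 4 stood out for *Myl7* (100.2), *Myl4* (263), *Nppa* (654), and *Sln* (62.2), and KO+AAV replicate 1 for *Myl7* (72.6), *Myl4* (141), and *Nppa* (136). White fat had *Nppa* at 89.5 in KO replicate 4 and at 21.2 in KO+AAV replicate 1, and *Asb11* at 2125 in KO replicate 2. In lung only *Nppa* in KO replicate 4 (350.4) was set apart. Gastrocnemius had *Myh6* at 67.3 in the 10-week KO+AAV replicate 6 and *Asb11* at 5194 in the 40-week KO+AAV replicate 2. What the hearts and livers with these numbers share was not tested.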

How the results depend on the processing

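The median lung difference of the 9 genes stayed between 2.64 and 3.03 under 7 other settings and between 2.18 and 3.51 with 1 library left out. Over all lung genes, 5 passed an adjusted P of 0.05 with limma, 2 with a mean above 50, 626 with DESeq2, 0 with a replicate block, and 2 to 257 with 1 library left out, the highest without KO+AAV replicate 2. In heart, *Myh6* was -0.02 with edgeR and -0.02 with DESeq2 without KO replicate 2. *Myl4*, *Nppa*, and *Sln* were -1.77, -2.75, and -1.79 with edgeR and the same to 2 decimals with DESeq2, and without KO replicate 2 they were -2.19, -3.16, and -2.20 with edgeR and -2.18, -3.15, and -2.19 with DESeq2. With each heart left out, *Myh6* ranged from -0.03 to 0.42, *Myl7* from -3.16 to 2.12, *Myl4* from -1.73 to 2.64, *Nppa* from -0.27 to 3.13, and *Sln* from -1.33 to 3.82. The cause of these reversals was not tested.

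Genes called over whole tables moved from 0 to 1 with no filter and 3 with DESeq2 without KO replicate 2 in heart, to 8 with DESeq2 in liver, and to 3 with no filter, 1 with DESeq2, and 9 with DESeq2 without KO replicate 2 in white fat. In gastrocnemius DESeq2 called 1 of the 5 genes, *Myl4*, for KO+AAV versus KO at 10 weeks. *Sln* in WT versus KO at 10 weeks was -2.26 and lost its call with no filter (-2.26) and in ICBR libraries alone (-2.17), leaving 0 of the 5 genes called in each. The age difference of *Sln* passed with DESeq2. For KO+GFP, 1 of the 5 genes was called with no filter and 1, *Myh6*, with the replicate block, and 0 to 1 with 1 library left out, the call arising without control KO replicate 1. The replicate block changed no other call. Deviations of same-numbered KO and KO+AAV libraries correlated at -0.22 to 0.23 in lung, -0.25 to 0.23 in heart, -0.07 to 0.02 in liver, and -0.38 to 0.58 in white fat, so the numbers are not known to pair KO with KO+AAV mice. These values compare different mice within a tissue and cannot tell whether a number marks the same mouse across tissues. With lung and heart libraries of the same genotype and number as a replicate block, the ratio of ventricular to common genes differed by 2.79 (exact permutation p = 0.00781, the smallest that 8 pairs can give). Count and exact tests without KO heart or white fat replicate 2 and this pairing were chosen after seeing the data. With 4 libraries a group and errors of 2.05 to 3.88 on the log2 scale, heart differences of the 4 atrial genes could not be resolved.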
